A study of Gallus gallus with 8 samples.

Results

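Mitochondrial ribosomal proteins build the ribosome inside mitochondria, and all of them are encoded in the nucleus. The genes described here are those whose symbol in the array annotation begins with MRPL or MRPS followed by a digit. There were 67 such genes among the 13009 genes named on the array, 43 of the large subunit (MRPL) and 24 of the small subunit (MRPS). Each gene was read from 1 probe set, the one with the highest mean over the 8 arrays, and 19 of the 67 genes had more than 1 probe set among the 96 that carried these symbols.

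The arrays were Affymetrix chicken arrays of RNA from hen oocytes at the stage labelled F1 (in hens the name of the largest follicle of the ovary), taken 24 h before ovulation. DPF+ and DPF- are lines of hens selected in opposite directions, with unequal fertility. Hens of a single line with unequal fertility make up HG+ and HG-. The sources used here neither spell out DPF and HG nor say which sign marks the more fertile hens, and no treatment, transgene or age is labelled in any of the 4 groups. All hens were kept under 14 h of light and 10 h of darkness at 20 °C with free access to feed. Each group had 2 arrays, called biological replicates in the study's description, with nothing on whether they came from separate birds or from pools, so the p-values measure only the spread between these samples.

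The mitochondrial ribosome translates the few proteins that mitochondrial DNA encodes, which are core subunits of the respiratory chain and of ATP synthase. Its small subunit reads the messenger RNA, and its large subunit joins the amino acids and is held at the inner membrane, where the products are inserted. Some of its proteins have counterparts in bacterial ribosomes and others occur in mitochondria alone. An oocyte gathers a very large store of mitochondria before ovulation, and the embryo inherits its mitochondria from it.

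The tissue matched its label in part. Of 11 oocyte markers, 7 passed the filter on low values (log2 of 4 or more on 2 or more of the 8 arrays), among them CCNB1, the cyclin of M phase, at a mean log2 level of 13.54, and DAZL, a germ cell RNA-binding protein, at 7.38. The oocyte growth factors GDF9 (2.72) and BMP15 (2.52), the germ cell helicase DDX4 (2.50) and the egg coat protein ZP1 (2.44) were below it. The list's ZPD was matched through a synonym to UMOD (12.755), which counts among the 7. Of the others that passed, ZP2 read 6.33, while MOS (5.11), NPM2 (4.62) and H1FOO (4.54) lay nearer the threshold of 4. All 9 granulosa markers passed, with HSD3B1, a steroid-forming enzyme, at 12.13, and granulosa cells form the layer around the egg cell. Of the theca and stroma markers 1 of 7 passed (COL1A2), of the leukocyte markers 1 of 6 (CD74) and of the oviduct markers 1 of 5 (TF). Neither globin gene on the array passed, HBA1 (2.37) and HBAD (2.48), and the list's ALAS2 was matched through a synonym to ALAS1, which many cell types express, so it marks no red blood cells. In such mixed samples, fewer cells of a type and less RNA per cell cannot be told apart. The DPF+ arrays stood apart from the rest: over the 12725 tested probe sets, their replicates differed with an SD of 0.746 on the log2 scale. That SD was 0.456 for DPF-, 0.276 for HG+ and 0.282 for HG-.

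Nearly all mitochondrial ribosomal protein genes gave a signal. The filter was passed by 61 of the 67 genes (91.0%), compared with 54.1% of the 13009 named genes when each was read from its highest probe set. All 24 small subunit genes passed, and 37 of the 43 large subunit genes. The 6 genes below the filter were MRPL1, MRPL21, MRPL30, MRPL33, MRPL34 and MRPL47, all of the large subunit and all with a bacterial counterpart, with values between 2.27 and 3.07 on every array. The annotation had no probe set of its own for MRPL11, part of the base of the large subunit stalk, or for MRPS18B and MRPS18C, relatives of MRPS18A.

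The signals covered a wide range, but probe sets differ in affinity, so the order of the genes is that of their probe sets and not of the amounts of RNA. The median log2 level was 7.81 over the 43 large subunit genes, 8.04 over the 37 of them past the filter and 7.50 over the 24 small subunit genes, compared with 6.06 over all tested probe sets. In the large subunit the highest means were those of MRPL24 (9.45) and MRPL23 (9.09), whose bacterial counterparts lie at the mouth of the exit tunnel, and of MRPL14 (9.23) and MRPL13 (9.07). The lowest tested ones were MRPL19 (4.43), MRPL22 (5.03), another protein of the exit tunnel, MRPL45 (5.92), which anchors the mitochondrial ribosome at the inner membrane, and MRPL55 (6.02).

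In the small subunit MRPS6, the counterpart of bacterial S6, gave a mean of 11.52, followed by MRPS31 (8.81), MRPS17 (8.75) and MRPS10 (8.69). A second probe set for MRPS6 read 6.5, and the gene overlaps SLC5A3, a myo-inositol transporter gene, in the reference annotation. The lowest small subunit genes were MRPS25 (4.24), MRPS14 (5.65), MRPS12 (6.12), a protein of the decoding site, and MRPS2 (6.25). Neighbours in these orders often lay closer together than their own spread over the arrays: the means of MRPL14 and MRPL23 differed by less than the SD of MRPL23 over the 8 arrays (0.279).

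**Figure D1:**
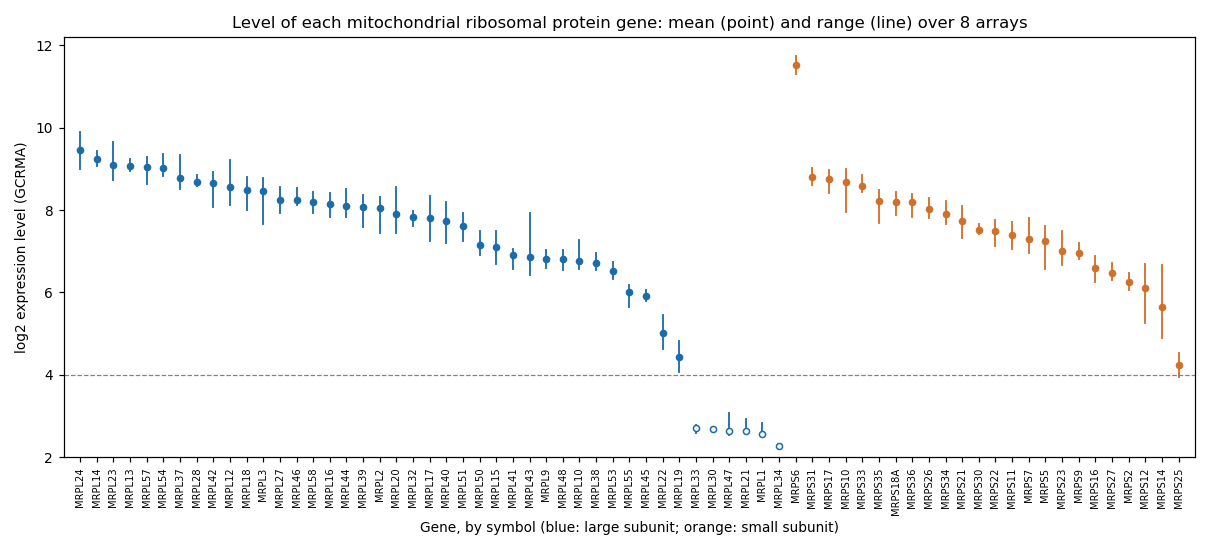
Log2 expression level (vertical axis) of each of the 67 genes (horizontal axis), large subunit in blue and small subunit in orange; points are means over the 8 arrays, lines run from the lowest to the highest array, and open points are the 6 genes below the filter, whose threshold of 4 is the dashed line. MRPS6 stands above all other genes at 11.52, and the 6 open points lie below 4 at the right end of the large subunit.

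The genes varied less between arrays than the tested probe sets as a whole. The median SD over the 8 arrays was 0.209 for the tested members (0.223 in the large and 0.199 in the small subunit) and 0.320 for all tested probe sets. Only 9 of the 61 tested genes (14.8%) had a range over 1 on the log2 scale, compared with 45.4% of all tested probe sets. The latter have a lower median level (6.06) and include every probe set of a gene, which was not adjusted for. Related lists lay on either side of the members in the median standard error (SE) of DPF+ against DPF-, described below. The fit draws each SE toward a value set by the level of the probe set. The lists differ in level, which was not adjusted for. On DPF+ replicate 1 the median level was 11.7 for the cytosolic list below, 7.8 for the 61 genes and 6.14 for the assembly list. The median SE was 0.221 for the 61 genes and 0.262 for all tested probe sets. It was 0.206 for 67 genes of oxidative phosphorylation and 0.180 for 58 cytosolic ribosomal protein genes. Lists of genes that work with the mitochondrial ribosome had larger ones. These were 0.237 for assembly, 0.316 for translation factors and 0.262 for aminoacyl-tRNA synthetases. Genes of mitochondrial transcription and biogenesis had 0.265, as did the subunits without an MRP symbol. MRPS30, first described in chicken as a protein linked to cell death, was among the steadiest with an SD of 0.078, and its values lay between 7.42 and 7.65. MRPL28 (SD 0.090) and MRPL45 (SD 0.089) were as steady, while MRPS14 (0.666), MRPL43 (0.478), MRPS12 (0.462) and MRPL20 (0.444) varied most.

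The DPF+ replicates lay furthest apart in both subunits, mostly in the same direction in the large subunit and in either direction in the small subunit. The median deviation of the 37 large subunit genes from their own means was -0.16 on DPF+ replicate 1 and 0.18 on DPF+ replicate 2, and lay between -0.12 and 0.08 on the other 6 arrays. The 24 small subunit genes had medians of -0.08 and 0.04 on these DPF+ arrays. Over all tested probe sets the medians were -0.11 and 0.00.

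DPF+ replicate 2 was the highest of the 8 arrays for 18 of 37 large subunit genes (48.6%) and for 4 of 24 small subunit genes (16.7%), and for 26.8% of all tested probe sets. It was the lowest for 6 of the 61 genes (9.84%), against 21.6% of all tested probe sets. DPF+ replicate 1 was the lowest array for 15 large (40.5%) and 5 small subunit genes (20.8%), and for 25.4% of all tested probe sets. It was the highest for 3 large and 7 small subunit genes, 10 of 61 (16.4%), where the share over all tested probe sets was 16.9%. Of the large subunit genes 29 of 37 were higher on replicate 2 than on replicate 1, and of the small subunit genes 10 of 24, with 55.2% of all tested probe sets. The median difference, replicate 2 minus replicate 1, was 0.33 in the large and -0.02 in the small subunit. These are differences between single arrays, so they have no test.

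The largest difference between the DPF+ arrays belonged to MRPL43, a large subunit protein found only in mitochondria, which read 6.43 on replicate 1 and 7.92 on replicate 2. On the other 6 arrays it lay between 6.47 and 7.08. The gene overlaps SEMA4G in the reference annotation. MRPS12 had the next, at 5.26 and 6.60, followed by MRPL12, the counterpart of the bacterial stalk protein L7/L12, at 8.13 and 9.21. MRPL10, which holds the stalk on the ribosome, read 6.60 and 7.27. The opposite difference was found for MRPS14, at 6.66 and 5.73, and for MRPL20, at 8.55 and 7.70. For these genes DPF+ replicate 1 was the highest of the 8 arrays, so replicate 2 was not the higher array for every gene.

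**Figure D2:**
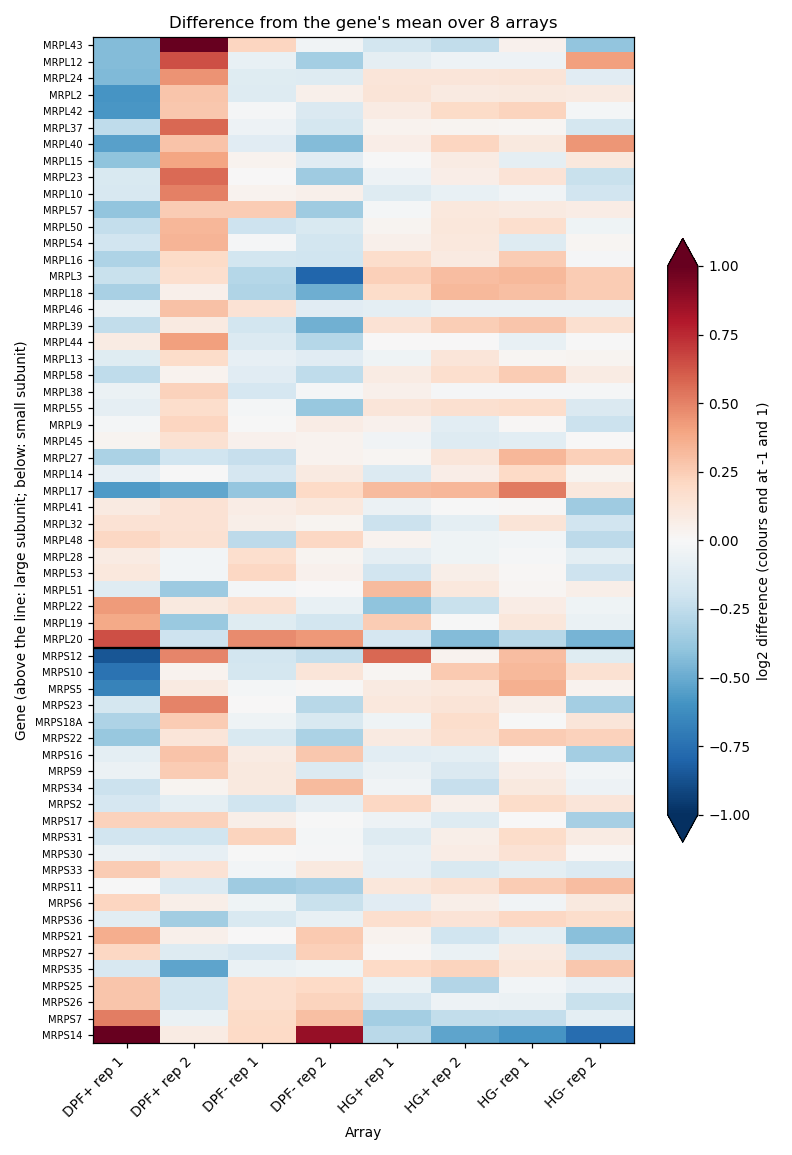
Log2 difference of each of the 61 tested genes (rows) from its own mean over the 8 arrays (columns), red for higher and blue for lower, with colours ending at -1 and 1; large subunit genes lie above the black line and small subunit genes below it, ordered by DPF+ replicate 2 minus replicate 1. The first 2 columns carry the strongest colours, with opposite signs in most large subunit rows, where 29 of 37 genes are higher on replicate 2.

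Gene groups that work beside these had medians of either sign on the DPF+ arrays, given as a description. The median deviation of 58 cytosolic ribosomal protein genes was -0.07 on DPF+ replicate 1 and -0.19 on replicate 2. For 67 genes of oxidative phosphorylation, whose products work beside those of the mitochondrial ribosome, it was -0.08 and -0.11. A list of 17 tested genes for assembly of the mitochondrial ribosome had medians of -0.20 and 0.47. The 4 tested subunits of the mitochondrial ribosome without an MRP symbol were all higher on replicate 2, by a median of 0.54. DAP3, a small subunit protein that binds GTP, read 6.71 and 7.86, and PTCD3, a small subunit protein that binds RNA, read 7 and 7.87. Neither is among the 24 small subunit genes, which were taken by symbol. On replicate 2 the median deviation of these 4 subunits was 0.30, that of the large subunit 0.18 and that of the 24 genes 0.04. The signal of 3′ over 5′ probe sets of control transcripts is a sign of RNA quality. Averaged over actin, EF1a and GAPDH, it was a log2 difference of 1.82 on DPF+ replicate 1 and 1.86 on replicate 2. Its part in these differences was not tested.

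**Figure D3:**
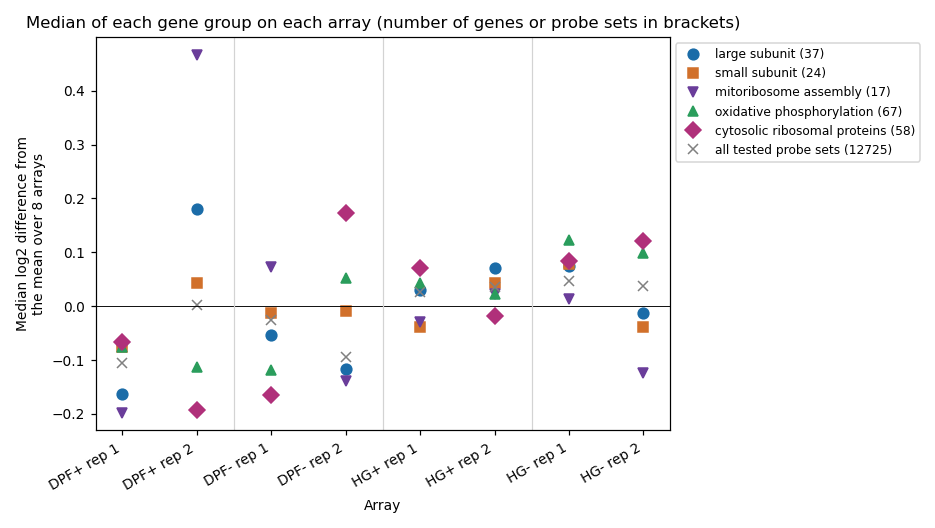
Median log2 difference from the mean over the 8 arrays (vertical axis) for each gene group (colours and symbols, with the number of genes or probe sets in the legend) on each array (horizontal axis). On DPF+ replicate 2 the large subunit (0.18) and the assembly list (0.47) lie above the small subunit (0.04), and the cytosolic ribosomal proteins (-0.19) and oxidative phosphorylation (-0.11) lie below it.

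The first comparison, DPF+ against DPF-, asks which genes differ with fertility between the divergent lines. The 3′ over 5′ difference of the control transcripts was 1.82 and 1.86 on the DPF+ arrays. On the DPF- arrays it was 1.54 and 1.33, with no overlap, and its part in this comparison was not tested. No mitochondrial ribosomal protein gene passed the 5% threshold in limma after Benjamini-Hochberg adjustment, and none of the 12725 tested probe sets did (0%). Of the 61 genes 40 had a change above 0, compared with 52.4% of all tested probe sets. At an unadjusted p under 0.05 there was 1 gene of 61, against 6.14% of all tested probe sets. These were 781 probe sets, and 297 when limma was fitted to only the 4 DPF arrays. The median log2 change of the 61 genes was 0.08 and that of all tested probe sets 0.02. It was 0.13 in the large subunit, with 27 of 37 genes above 0, and 0.01 in the small subunit, with 13 of 24 above 0.

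The large minus small subunit difference in this change, 0.12, turned with single arrays. Without DPF+ replicate 2 it was -0.02 and the median of the 61 genes -0.04, and without DPF+ replicate 1 they were 0.27 and 0.19. Without DPF- replicate 1 the difference was 0.21. Adding the RNA amount as a covariate gave 0.05 and a large subunit median of 0.04. Large minus small subunit medians per array were -0.09 and 0.14 in DPF+ and -0.04 and -0.11 in DPF-, so the groups overlapped. With MRPS30 and MRPS18A counted in the large subunit, where they lie in mammalian structures, the large subunit median was 0.13 and the small subunit median 0.01. The small subunit genes without a bacterial counterpart had a median of -0.11 over 11 genes, and those with one 0.03 over 13.

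The arrays of DPF+ and DPF- did not overlap for 7 higher and 6 lower genes, 21.3% of the 61, and for 23.3% of all tested probe sets (11.2% higher and 12.1% lower). MRPL44, a large subunit protein with a ribonuclease-like fold, had the smallest p of them. It read 8.19 and 8.52 in DPF+, 7.97 and 7.82 in DPF-, 8.11 on both HG+ arrays, and 8.03 and 8.10 in HG-. DPF+ lay above the other 3 groups, with a change of 0.46 (SE 0.19) from DPF- and an adjusted p of 0.801 in limma. The adjusted p of this change ran from 0.0591 to 1 over the alternatives. MRPL3, the counterpart of a bacterial protein near the catalytic centre, read 8.23 and 8.62 in DPF+ against 8.17 and 7.66 in DPF- (change 0.51, adjusted p 0.840 in limma). The change was 0.255 without DPF- replicate 2, 0.315 without DPF+ replicate 2, 0.765 without DPF- replicate 1, 0.28 with the RNA amount as a covariate and 0.18 with its probe sets averaged. MRPL3 has no other tested probe set, so that average takes in probe sets below the filter. MRPS6 (0.27), MRPS11 (0.28), the counterpart of a bacterial platform protein, and MRPS17 (0.20) had the next smallest p among the higher genes without overlap. The change of MRPS6 was 1.02 in its second probe set and 0.18 without DPF- replicate 2.

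MRPL17, whose bacterial counterpart lies near the exit tunnel, was the lower gene of smallest p. It read 7.24 and 7.29 in DPF+ and 7.42 and 8.01 in DPF-, a change of -0.45 (adjusted p 0.882 in limma), but its 2 other tested probe sets gave 0.29 and -0.36. The next lower genes were MRPS31 (-0.29), MRPS34 (-0.30), which supports the small subunit RNA in mouse, MRPS35 (-0.29) and MRPL51 (-0.23), each with non-overlapping arrays. All of these have adjusted p of at least 0.801. The median SE of the change over the 61 genes was 0.221, and with 2 arrays a group differences of this size were not detectable.

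Leaving out DPF+ replicate 1 brought 2 large subunit genes past 5%, MRPL43 (0.96, adjusted p 0.0494 in limma) and MRPL37 (0.69, adjusted p 0.04995 in limma), while 8.41% of all tested probe sets then passed. These values are those of a single remaining DPF+ array, assumed to vary like the other groups. MRPL37 has a second tested probe set, which read 7.33 on that array and 7.16 and 6.81 in DPF-. With all arrays its change was -0.05, against 0.275 for the probe set used here. Without DPF+ replicate 2 no gene passed, and 2 of all tested probe sets did (0.0157%).

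The second comparison, HG+ against HG-, asks which genes differ with fertility within 1 line. The 3′ over 5′ difference of the control transcripts was 1.15 and 1.17 in HG+ and 1.10 and 1.04 in HG-. These averages over the control transcripts did not overlap either, but actin and GAPDH taken singly did. Actin gave 2.32 and 2.39 in HG+ and 2.43 and 2.00 in HG-. GAPDH gave 0.37 and 0.29 in HG+ and 0.13 and 0.37 in HG-. The part of RNA quality in this comparison was not tested. No gene passed 5% in limma, as for all tested probe sets (0%), and no gene had an unadjusted p under 0.05, where 0.354% of all tested probe sets did. The groups share 1 estimate of the spread, which includes the DPF+ arrays, whose replicates lay furthest apart. With only the 4 HG arrays in the limma fit, 298 of all tested probe sets had an unadjusted p under 0.05, compared with 45 here. With array weights there were 349, and no probe set passed 5% in either fit. Genes with a change above 0 numbered 32 of 61, and they were 45.4% of all tested probe sets. The median change was 0.01 over the 61 genes and -0.02 over all tested probe sets, and it was 0.01 in the large and -0.03 in the small subunit.

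Arrays of HG+ and HG- did not overlap for 6 higher and 8 lower genes, 23.0% of the 61, against 25.1% of all tested probe sets (10.7% higher and 14.4% lower). The higher genes of smallest p were MRPL51 (0.18), MRPS14 (0.28), MRPS23 (0.26), MRPL54 (0.14) and MRPL37 (0.11). The lower ones were MRPL22 (-0.33), MRPL27 (-0.21), the counterpart of a bacterial protein near the catalytic centre, MRPS31 (-0.16), MRPS11 (-0.14) and MRPS9 (-0.12). MRPL22 read 4.62 and 4.8 in HG+ and 5.10 and 4.98 in HG-, close to the filter. Every one of these changes had an adjusted p of 1 in limma. MRPS14 turned to -0.17 with the RNA amount as a covariate, and the second probe set of MRPL37 gave -0.165.

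The third comparison tests whether the fertility contrast in the divergent lines differs from that within the single line. None of the 61 genes passed 5%, nor did any tested probe set (0%). No gene had an unadjusted p under 0.05, which 2.86% of all tested probe sets had. The median difference was 0.06 over the 61 genes and 0.04 over all tested probe sets, with 39 of 61 genes above 0 against 54.5%. It was 0.11 in the large subunit and -0.01 in the small subunit. The contrasts had opposite signs with no overlap of arrays in either for 2 of the 61 genes (3.28%), against 3.14% of all tested probe sets (1.88% and 1.26% in the respective directions).

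MRPS11 was the first of these. It read 7.40 and 7.27 in DPF+ against 7.05 and 7.07 in DPF-, and 7.52 and 7.56 in HG+ against 7.66 and 7.71 in HG-. The plus group was higher in the divergent lines and lower within the line, and the difference was 0.42 (SE 0.25, adjusted p 0.999 in limma). MRPL51 showed the reverse, with 7.50 and 7.26 against 7.60 and 7.63 in the divergent lines and 7.94 and 7.73 against 7.64 and 7.68 within the line. Its difference was -0.41 (SE 0.27, adjusted p 0.999 in limma).

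**Figure D4:**
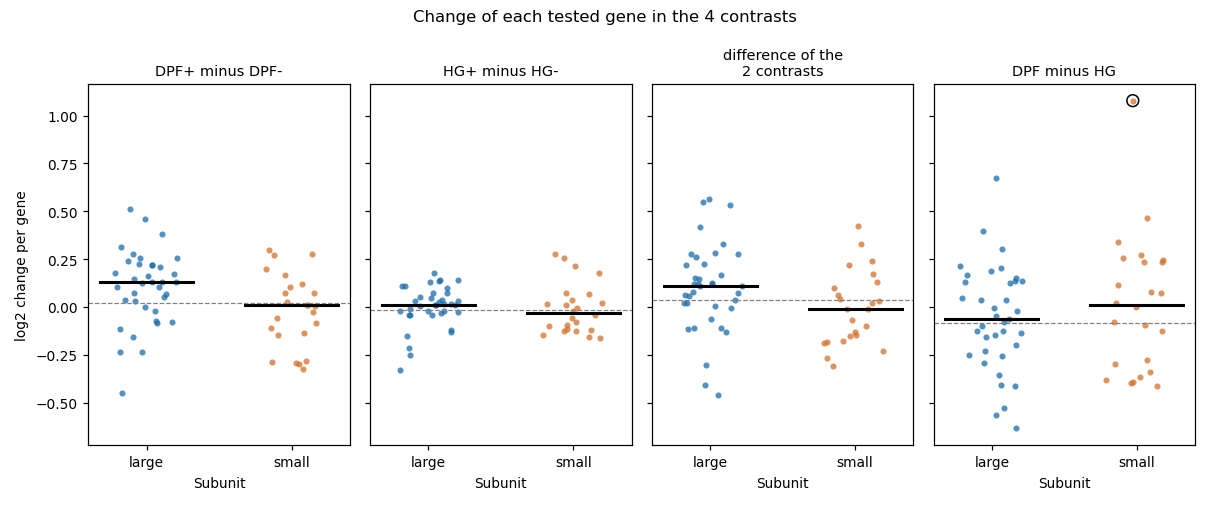
Log2 change of each of the 61 tested genes (points) in the 4 contrasts (panels), large subunit in blue and small subunit in orange; thick black lines are medians of each subunit, the grey dashed line is the median of all tested probe sets, and the black circle marks MRPS14, which passed 5%. In the first panel the large subunit median (0.13) lies above that of the small subunit (0.01), and in the last panel the spread is wider around medians near 0.

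All 4 DPF arrays were also set against all 4 HG arrays. The source of the hens and any batch of the arrays cannot be told apart in this comparison, and the labels name no batch. The 3′ over 5′ difference of the control transcripts ran from 1.33 to 1.86 over the DPF arrays and from 1.04 to 1.17 over the HG arrays, with no overlap. Markers of other cells differed between the same arrays. COL1A2, a collagen of stroma, read 5.97, 4.68, 4.50 and 4.08 on the DPF arrays and 8.93, 8.87, 8.01 and 8.51 on the HG arrays, with an adjusted p of 0.0013 in limma, while the other 6 theca and stroma markers were below the filter. The summed level of that list (log2 of the sum of linear values) ran from 5.87 to 6.71 over the DPF arrays and from 8.21 to 9.04 over the HG arrays. This difference came from COL1A2 alone, since none of the other 6 had a lower mean in DPF. COL3A1, the next highest, had means of 3.63 in DPF and 3.55 in HG. Among the 9 granulosa markers only GATA4, a transcription factor, passed 5%, and it was lower in DPF (adjusted p 0.0425 in limma). STAR, the cholesterol transporter of steroid synthesis, had means of 8.60 and 9.64 (adjusted p 0.0781 in limma). AMH (-0.50), LHCGR (-0.43), CYP11A1 (-0.16) and HSD3B1 (-0.04) also had changes below 0. Those of INHA (0.425), FSHR (0.04) and FOXL2 (0.03) were above 0. The summed granulosa level ran from 13.13 to 13.97 over the DPF arrays and from 13.63 to 13.95 over the HG arrays. The summed oocyte level, made up mostly of CCNB1 and UMOD, ran from 13.90 to 14.34 and from 14.32 to 14.40. The leukocyte list, in which CD74 alone passed the filter, ran from 7.82 to 8.91 and from 8.80 to 9.31. The oviduct list, in which TF alone passed, ran from 8.34 to 8.98 and from 8.09 to 8.31. The part of RNA quality and of these cell types in the results of this comparison, MRPS14 included, was not tested.

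One small subunit gene, MRPS14, rose in the DPF arrays, 1 of the 61 genes (1.64%). Of all tested probe sets 12.5% passed, 3.48% higher and 9% lower. The split of all calls was 443 higher and 1145 lower, and with quantile normalization 550 and 838. The median change of the 61 genes was -0.05 and that of all tested probe sets -0.08. In the large subunit it was -0.065, with 15 of 37 above 0, and in the small subunit 0.01, with 12 of 24 above 0. In all, 27 of 61 genes had a change above 0, compared with 41.5% of all tested probe sets. Unadjusted p was under 0.05 for 12 genes (19.7%) and for 29.7% of all tested probe sets. The arrays did not overlap for 5 higher and 9 lower genes (23.0%), against 24.8% of all tested probe sets, of which 8.30% were higher and 16.5% lower.

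MRPS14, the counterpart of a bacterial protein in the head of the small subunit, read 6.66 and 5.73 in DPF+, 5.85 and 6.52 in DPF-, 5.38 and 5.12 in HG+, and 5.06 and 4.89 in HG-. All 4 DPF arrays lay above all 4 HG arrays, and the replicates of each DPF group were far apart. The means were 6.19 ± 0.47 (SD, n = 4) and 5.11 ± 0.20 (SD, n = 4), a change of 1.08 (SE 0.25), or 2.11-fold, with an adjusted p of 0.0326 in limma. The change lay between 0.845 and 1.31 under the 18 alternatives, with adjusted p from 0.0041 to 0.139, and it passed 5% in 10 of them. In the other 8 it did not pass: without DPF- replicate 2 (0.110), without any single HG array (0.0948 to 0.139), with no filter on low values (0.107), with a filter at log2 6 (0.0510) and under a replicate block (0.0583). The gene has no second tested probe set, and it overlaps CACYBP in the reference annotation. Whether CACYBP transcripts add to its signal was not tested.

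The other genes named here did not pass the threshold. MRPL18, whose bacterial counterpart binds the small ribosomal RNA of the large subunit, read 8.15, 8.53, 8.18 and 7.99 on the DPF arrays and 8.66, 8.80, 8.78 and 8.73 on the HG arrays. Its DPF arrays were all lower, with a change of -0.53 (SE 0.14, adjusted p 0.0510 in limma). The adjusted p ran from 0.0068 to 0.214 over the alternatives. MRPL3 read 8.23, 8.62, 8.17 and 7.66 against 8.69, 8.76, 8.78 and 8.71, a change of -0.565 (adjusted p 0.0653 in limma). The gene has no other probe set past the filter. With its probe sets averaged the change was -0.17, and the adjusted p ran from 0.0134 to 0.282 over the alternatives, the lowest without DPF+ replicate 2. MRPS11, whose values are given above, had a change of -0.415 (adjusted p 0.0708 in limma), MRPS35 one of -0.40 (adjusted p 0.102 in limma) and MRPL39 one of -0.41 (adjusted p 0.107 in limma).

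On the higher side, MRPS7, the counterpart of a bacterial protein that nucleates the head of the small subunit, read 7.80, 7.22, 7.48 and 7.59 on the DPF arrays and 6.95, 7.04, 7.05 and 7.19 on the HG arrays. Its change was 0.465 (adjusted p 0.107 in limma), with all DPF arrays higher, but its second probe set gave -0.03. MRPS33 (0.23), MRPL41 (0.20) and MRPL45 (0.13) had non-overlapping arrays and smaller differences. MRPL45 read 5.94, 6.07, 5.96 and 5.95 against 5.88, 5.79, 5.81 and 5.92.

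MRPL17 and MRPL20 were picked after their values were seen, since their DPF and HG arrays overlap. MRPL17 read 7.24, 7.29, 7.42 and 8.01 against 8.12, 8.14, 8.33 and 7.91, a change of -0.635 (adjusted p 0.0579 in limma). Its 2 other tested probe sets gave -0.48 and -0.49. MRPL20, whose bacterial counterpart acts early in assembly, read 8.55, 7.70, 8.38 and 8.34 against 7.74, 7.47, 7.63 and 7.44, a change of 0.67 (adjusted p 0.0708 in limma). DPF+ replicate 2 was the only DPF array within the HG range.

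**Figure D5:**
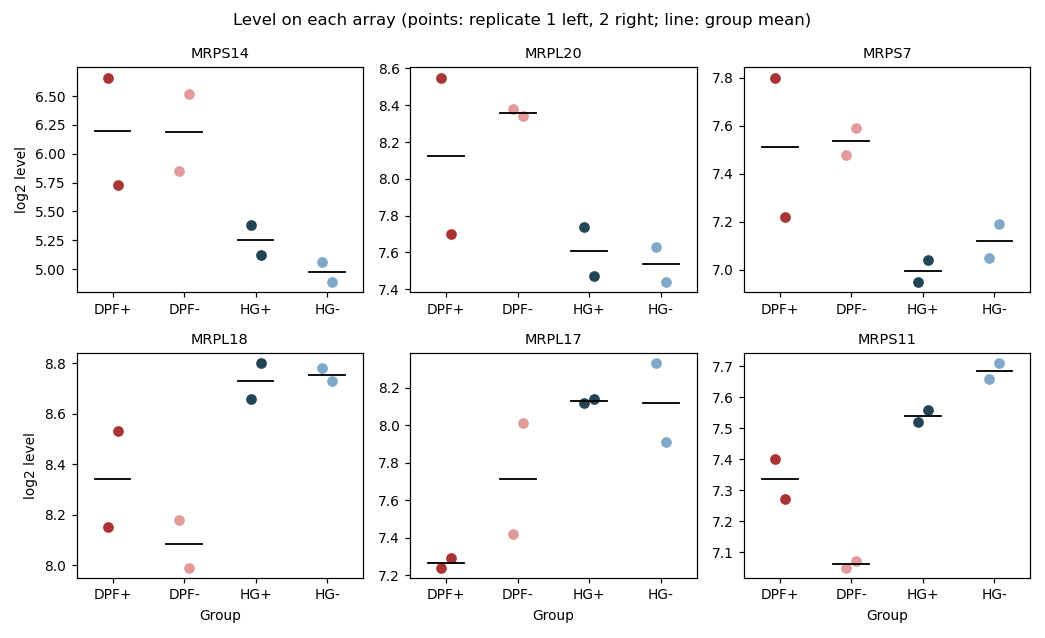
Log2 level of MRPS14, MRPL20, MRPS7, MRPL18, MRPL17 and MRPS11 (panels) on each array, points for replicates 1 (left) and 2 (right) of each group and lines for group means. MRPS14 is higher on every DPF array (5.73 to 6.66) than on every HG array (4.89 to 5.38), and MRPL18 and MRPS11 are lower on every DPF array.

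The calls depended on single arrays. Without DPF+ replicate 1, 7 genes passed 5% (3 higher and 4 lower, 11.5% of 61), and 20.6% of all tested probe sets. Without DPF+ replicate 2, 20 passed (4 higher and 16 lower, 32.8% of 61), 12 of the large and 8 of the small subunit, with 38.1% of all tested probe sets. The median change of the 61 genes was 0.065 without replicate 1 and -0.14 without replicate 2. Without DPF- replicate 2 or any single HG array no gene passed in limma, and 174 to 518 of all tested probe sets did.

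Some of the genes lie close together on the genome. MRPL46 and MRPS11 lie next to each other in the reference annotation with no coding gene between them, and their differences in DPF against HG were 0.13 and -0.415. MRPL14 and MRPS18A lie with 2 coding genes between them. The log2 difference in DPF against HG was -0.10 for MRPL12 and 0.21 for MRPL10 of the stalk, and -0.39 for MRPS12 at the decoding site. It was 0.04 for MRPL44, -0.08 for MRPS30 and -0.12 for MRPS18A. None of these passed the threshold. MRPL58, a release factor for stalled chains, had -0.29 and MRPS36, later assigned to an enzyme complex of the citric acid cycle, -0.34.

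Genes that work with the mitochondrial ribosome were read in the same way. Of 17 tested assembly genes of 24 listed, 2 passed 5% in DPF against HG (11.8%, with 12.5% over all tested probe sets), with 10 above 0 and a median of 0.04. MTG1, a GTPase of mitochondrial ribosome assembly, rose by 0.715 (adjusted p 0.0262 in limma). The other was LRPPRC, which stabilises mitochondrial messenger RNA. It read 3.23, 2.82, 3.69 and 3.93 on the DPF arrays and 4.87, 4.71, 4.91 and 4.57 on the HG arrays. LRPPRC thus passed the filter only through the HG arrays, where it is high. Its values, its call and its part in the 11.8% are a description. Of 9 tested translation factors of 13 listed, MTIF2, the mitochondrial initiation factor, rose by 0.48 (adjusted p 0.0473 in limma), 1 of 9 (11.1%), and the median was -0.05. Of 9 tested aminoacyl-tRNA synthetases of 17 listed, 1 was called (11.1%), MARS2, which loads methionine. It too passed the filter mainly through the HG arrays, with means of 3.70 in DPF and 4.49 in HG. Its values, its call and the 11.1% for this list are likewise a description.

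Of 4 tested subunits without an MRP symbol, of 6 listed, none passed, nor did any of 9 tested genes of mitochondrial transcription and biogenesis of 15 listed. PTCD3 had a change of 0.23 and DAP3 one of -0.20. In the fertility contrasts no gene of these 5 lists passed 5% in limma. At an unadjusted p under 0.05 in DPF+ against DPF- there was MTIF2, and LRPPRC, whose DPF values all lay below the filter threshold. In DPF+ against DPF- the synthetases were above 0 for 9 of 9, the biogenesis list for 8 of 9 and the assembly list for 14 of 17, with medians of 0.155, 0.22 and 0.08, where 52.4% of all tested probe sets were above 0. These counts turned on DPF+ replicate 2: DPF+ replicate 1 alone lay above the DPF- mean for 4 of 9, 4 of 9 and 5 of 17 genes, and replicate 2 for 8 of 9, 8 of 9 and 13 of 17. The cytosolic ribosomal proteins had a median of -0.12 there, with 13 of 58 above 0, and oxidative phosphorylation one of -0.07, with 20 of 67 above 0. On DPF- replicates 1 and 2 the median deviation was -0.16 and 0.17 for the cytosolic list. It was -0.12 and 0.05 for oxidative phosphorylation. In both lists DPF- replicate 2 alone had a median above those of both DPF+ arrays.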

How the data were processed

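Each deposited value is the log2 signal of a probe set, computed by the authors with GCRMA per the submitters' processing notes (no version stated), a method that corrects for background, normalizes between arrays and summarises the probes. The labels give 8.8 to 13.3 µg of RNA a sample and 20 µg of amplified RNA an array. Of 38535 probe sets, 96 controls and 8 with a blank value (6 blank on DPF arrays and 2 on HG arrays) were left out, and 12725 that reached a log2 value of 4 on 2 or more of the 8 arrays were tested. The number of arrays limits the precision.

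Gene names came from the platform annotation given with the series, in which 27178 probe sets had 1 gene, 177 several and 11180 none; only probe sets with 1 gene were named. All 67 member genes were found by gene identifier in the RefSeq gene table (GRCg7b), 67 under the same symbol, and positions there served only to find neighbouring and overlapping genes.

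Group means of all 4 groups entered a single limma model (version 3.58.1, R 4.3.3; two-sided, eBayes with an intensity trend), whose residual degrees of freedom were 4 and prior ones 3.68. P-values were adjusted by the Benjamini-Hochberg method over all 12725 probe sets, with a threshold of 5%. Medians over gene lists are descriptions. The fit was tested on simulated data with 200 changed probe sets. At a log2 change of 1 it recovered 0 in DPF+ against DPF-, 8 in HG+ against HG- and 138 in DPF against HG. False calls numbered 0, 0 and 10. At a log2 change of 2 it recovered 195, 187 and 200, with 17, 11 and 9 false calls. Each simulated probe set had the same spread on all arrays, so the unequal spread of the real groups was not tested. The alternatives were other filters, normalizations and moderation, other probe sets of a gene, array weights, the RNA amount, a replicate block, and leaving out each array. Replicate numbers pair no samples in the labels.

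Genes were named when past 5%, when among the 5 of smallest p in each direction without overlap of arrays, when among the 4 highest or lowest in level in a subunit, or for their role; of each partner list, those past 5% or the 2 of smallest p. The members and lists were chosen with earlier results of these data known.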

Additional observations from a re-analysis of the deposited data

Results flagged for a closer look

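MRPL45, the protein that anchors the mitochondrial ribosome at the inner membrane, read 6.07 on DPF+ replicate 2, while the other 3 DPF arrays lay between 5.94 and 5.96. The gap to the nearest array was 0.846 of the range of the 4 DPF arrays, above Dixon's critical value for 4 samples. Chance alone gives about 1 such value in 20 sets, and this was the 1 found in 24 sets of 4 arrays looked at.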

How the results depend on the processing

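Of 464 recalculated values other than those of single genes, such as counts and medians, 55 moved. A small change of sign was not counted as a move. The small subunit median in DPF+ against DPF- was 0.0075, and its -0.02 with quantile normalization counted as the same. Other moderation and a replicate block left the medians as they were, so the values that did not move are no measure of stability. Single genes were recalculated only in comparisons where they were named as past 5% or of smallest p without overlap. Genes picked otherwise, such as MRPL43 and MRPL20, were not counted. Many alternatives cannot alter the direction of a change. Other filters, other moderation and a replicate block leave the change itself as it is. The genes were picked for arrays that do not overlap, so leaving out 1 array cannot turn its sign either. A kept direction under these alternatives is therefore no sign of robustness. Of these 619 values, 598 kept their direction and their side of the 5% threshold, 8 lost the threshold, 9 gained it and 4 changed sign. The 4 were MRPS14 in HG+ against HG- (-0.17 with the RNA amount as a covariate), MRPL37 there (-0.0275 with its probe sets averaged and -0.165 with the second probe set) and MRPS7 in DPF against HG (-0.03 with the second probe set). The causes were not tested. With no filter on low values, 38431 probe sets were tested. Those called numbered 10 in DPF+ against DPF-, 1 in HG+ against HG- and 1 in the difference of the contrasts. In DPF against HG 1045 were called, and no gene of the mitochondrial ribosome (0). In DPF against HG, a filter at log2 6 gave 549 calls among 7310 probe sets and 0 genes. Averaging the probe sets of each gene gave 646 calls among 8075 genes or unnamed probe sets, and 1 gene, MRPS14. Median centring gave 1603 calls among 12725 probe sets and 2 genes. The RNA amount as a covariate gave 1730 calls among 12725 and 2 genes. With that covariate the difference between large and small subunit was 0.05 in DPF+ against DPF- (0.12 without it), 0.14 in HG+ against HG- and -0.10 in the difference of the contrasts. The median level was 8.04 for the large subunit past the filter. With averaged probe sets, those below the filter included, it was 6.82 over the 43 large and 7.32 over the 24 small subunit genes.

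Leaving out 1 array at a time gave 0 to 1070 calls in DPF+ against DPF- and 0 to 2 genes, a median change from -0.04 to 0.19 and a large minus small difference from -0.02 to 0.27. In the difference of the contrasts the median lay between -0.025 and 0.24 and the large minus small difference between -0.0825 and 0.2475. In DPF against HG there were 174 to 4846 calls and 0 to 20 genes, a median from -0.14 to 0.065 and a large minus small difference from -0.12 to 0.09125. These come from fewer arrays, and the number of arrays limits the precision.

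Same-numbered arrays tended to deviate in opposite directions: the correlation of their deviations was -0.52 for DPF+ and DPF- and -0.19 for HG+ and HG-. In the DPF groups, arrays of unlike number thus tended to deviate together. The cause was not tested. With the replicate number as a block, DPF against HG had 870 calls and 0 genes, and MRPS14 had an adjusted p of 0.0583 in limma. Crossed pairings, chosen after the data were seen, gave 23 calls in DPF+ against DPF- and 0 in HG+ against HG- in limma (37 probe sets at an unadjusted p under 0.05).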
